A study of Mus musculus with 12 samples.

Results

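The genes described here are the receptor CD40, the adaptors of its signalling complex and their close partners: Cd40, Tnfrsf9, Traf1, Traf2, Traf3, Traf5, Traf6, Birc3 and Map3k14, 9 genes of the 25700 in the count table. They were taken by name, with earlier results of these data known. Counts of calls among them therefore describe these genes and do not test them as a set. Tnfrsf9 is a related receptor rather than a part of the CD40 complex. All 9 passed the filter on low counts that left 13844 genes for testing. Tnfrsf9 passed it through the anti-CD40 libraries, where it is high. RNA was sequenced from non-parenchymal liver cells that had been pulled out with beads against F4/80, a macrophage surface protein in mice, so each library holds an enriched mixture and no sorted population. There were 4 groups of 3 libraries from male mice of 8 to 10 weeks: sph/sph mice given an agonistic antibody to CD40 (20 mg/kg into the abdominal cavity, 30 h), wild-type (WT) mice given the same antibody, sph/sph mice given saline and WT mice given saline. Sph/sph mice carry a mutant alpha-spectrin (Spta sph/sph) in all their tissues and have fragile red cells and haemolytic anaemia; the controls are littermates labelled Spta wt/wt, although the columns of the count table call them heterozygous. Libraries were taken as separate animals because the design text gives 3 mice for each genotype under each treatment; they are called A to C in the order of the columns, and a letter does not pair animals. In each treatment the A libraries of both genotypes carry the same ID number in the column names; its meaning is not given, and they may be linked.

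CD40 is a receptor of the TNF receptor family with no enzyme activity of its own. When it is clustered, its tail binds TRAF proteins: TRAF2, TRAF3 and TRAF6 dock directly, and TRAF1 and TRAF5 join largely through the others. TRAF2, TRAF3 and the ubiquitin ligases cIAP1 and cIAP2 (Birc2 and Birc3) keep the kinase NIK (Map3k14) at a low protein level, and an engaged receptor relieves this and opens the non-canonical NF-kB pathway, while TRAF6 and TRAF2 also feed the canonical pathway and MAP kinases. Tnfrsf9 encodes 4-1BB, a related receptor that signals through TRAF1 and TRAF2 and is known from activated T and NK cells as well as myeloid cells. In liver macrophages and dendritic cells CD40 is a switch for inflammatory activation.

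Promoter sequences were looked up because several of the 9 genes moved together and some are known NF-kB targets. RefSeq sequences (GRCm38.p6) of the 250 bases before the start were found for 8 of the 9 genes, with 2 starts for Tnfrsf9 and none for Cd40. The windows of Traf1, which showed the largest rise of the adaptors, and of Traf3 lie outside annotated exons. Traf1 is at chr2:34961773-34962022 on the minus strand and Traf3 at chr12:111166120-111166369 on the plus strand, inside an intron of 4930595D18Rik on the other strand. The shorter Tnfrsf9 site is at chr4:150927947-150927975 on the plus strand, in an annotated untranslated exon of another Tnfrsf9 transcript and inside Camta1 on the other strand. Capitals mark matches to the kappaB consensus, the DNA motif that NF-kB dimers bind, searched on both strands.
Traf1 promoter: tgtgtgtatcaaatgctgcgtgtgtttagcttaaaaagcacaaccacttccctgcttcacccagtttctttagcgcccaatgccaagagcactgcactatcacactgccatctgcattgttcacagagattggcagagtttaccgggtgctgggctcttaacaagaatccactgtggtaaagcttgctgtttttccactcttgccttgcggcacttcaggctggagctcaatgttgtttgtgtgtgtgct
Traf3 promoter: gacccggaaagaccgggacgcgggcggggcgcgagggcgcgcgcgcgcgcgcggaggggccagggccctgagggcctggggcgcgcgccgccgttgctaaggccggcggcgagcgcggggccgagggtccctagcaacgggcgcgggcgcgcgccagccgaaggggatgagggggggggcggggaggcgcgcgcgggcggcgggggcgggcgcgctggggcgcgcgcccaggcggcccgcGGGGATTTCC
Tnfrsf9 site, second start: agagcagctGGGGATTTCCCaggaggccc
The Traf3 match ends at the base before the start (bases -10 to -1), and that of Tnfrsf9 is made of overlapping matches between bases -43 and -33. The consensus occurred in the same window of 3.9% of the 32851 RefSeq mouse promoters. The gamma-activated motif TTCNNNGAA, known for STAT factors, was also searched and occurred once, at bases -136 to -128 of the second Tnfrsf9 start, against 7.02% of all promoters. A match is a string of letters and not a measured binding site. In all, 2 of the 8 genes held the kappaB consensus. The windows of Traf1, Traf2, Traf5, Traf6, Map3k14 and Birc3 and of the first Tnfrsf9 start held neither motif. The Map3k14 window lies wholly inside annotated exons of Map3k14 and 1700028N14Rik, and the Birc3 window overlaps a Birc3 exon by 16 bases. For Traf5 the bases after the start were not found in an annotated transcript of the gene.

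Library depth ran from 14991250 to 18984067 counts. The cell mixture differed between groups, and it is given first because it touches every result below. The gene of the sorted surface protein, Adgre1 (F4/80), had 1178, 2237 and 1101 CPM in sph/sph anti-CD40 libraries and 173, 51.4 and 39.8 CPM in WT anti-CD40 libraries, against 1430 to 1907 CPM in sph/sph saline and 1579 to 1942 CPM in WT saline libraries; CPM are counts brought to the same total in every library, with TMM scaling. The 11 Kupffer cell markers summed to between 14061 and 20749 CPM in sph/sph anti-CD40 libraries and between 293 and 617 CPM in WT anti-CD40 libraries. They summed to between 28346 and 42102 CPM in sph/sph saline and between 34148 and 40967 CPM in WT saline libraries. Under anti-CD40 all 11 fell in WT mice, against 19.7% of all tested genes. Of the 11, 10 were higher in sph/sph than in WT mice, against 11.5% of all tested genes. The 20 T and NK cell markers summed to 75.2, 7.54 and 187 CPM in sph/sph anti-CD40 and 290, 2406 and 926 CPM in WT anti-CD40 libraries, against 14.3 to 30.8 CPM under saline. Of the 20, 19 rose in WT mice, against 19.4% of all tested genes. The 12 B cell markers reached 2993 CPM in sph/sph anti-CD40 C, against 103 to 202 CPM in the other libraries of that group, 80.5 to 457 CPM in WT anti-CD40, 114 to 178 CPM in sph/sph saline and 49.0 to 62.5 CPM in WT saline libraries. The 10 monocyte markers summed to 2656, 1654 and 710 CPM in sph/sph anti-CD40 and 3628, 2926 and 1358 CPM in WT anti-CD40 libraries. Under saline they summed to 190 to 626 CPM in sph/sph and 298 to 595 CPM in WT libraries. Of the 10, 1 rose in sph/sph mice and 5 in WT mice, against 0.578% and 19.4% of all tested genes. At an unadjusted p under 0.05 it was 7 in each genotype. Their median log2 folds were 2.68 in sph/sph and 3.11 in WT mice, and 0 of the 10 differed between genotypes under anti-CD40. The 10 neutrophil markers summed to between 94.7 and 300 CPM in sph/sph anti-CD40 and between 133 and 499 CPM in WT anti-CD40 libraries, against 56.1 to 143 CPM in sph/sph saline and 7.58 to 23.2 CPM in WT saline libraries. Of the 9 tested, 5 rose in WT mice, against 19.4% of all tested genes. The 10 endothelial markers ran from 286 to 2193 CPM in sph/sph anti-CD40 and from 1042 to 4359 CPM in WT anti-CD40 libraries, against 838 to 2079 CPM in sph/sph saline and 1292 to 3089 CPM in WT saline libraries. Of the 10 hepatocyte and 10 stellate cell markers, 4 and 3 fell in WT mice, against 19.7% of all tested genes. The 10 dendritic cell markers summed to between 63.2 and 111 CPM in sph/sph anti-CD40 and between 155 and 203 CPM in WT anti-CD40 libraries, and to between 83.2 and 127 CPM under saline. The 12 erythroid markers summed to between 4743 and 17370 CPM in sph/sph anti-CD40 and between 33.7 and 209 CPM in WT anti-CD40 libraries. Under saline they summed to between 5706 and 9461 CPM in sph/sph and between 74.6 and 333 CPM in WT libraries. No marker of these lists was at 0 in a whole group. In addition, 4 libraries, the A library of each group, held no counts of Y-linked genes although the labels describe males; the groups each hold 1 of them.

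**Figure D1:**
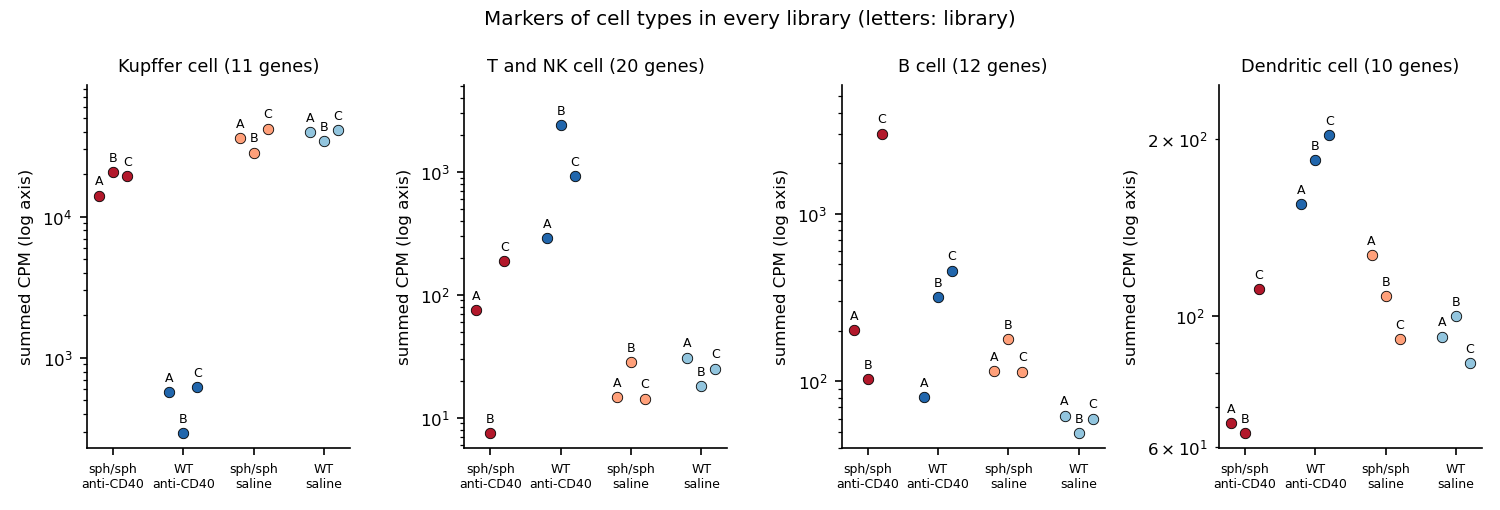
Summed CPM (log axis) of the markers of Kupffer cells, T and NK cells, B cells and dendritic cells in every library; each point is a library, lettered A to C, in the groups sph/sph anti-CD40, WT anti-CD40, sph/sph saline and WT saline. Kupffer cell markers are at 293 to 617 CPM in WT anti-CD40 libraries and 14061 CPM or more in all others, and the B cell markers of sph/sph anti-CD40 C, at 2993 CPM, exceed those of every other library.

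The first question is how the antibody to CD40 changed the receptor's own gene and its adaptors. In WT mice 7 of the 9 genes rose (edgeR quasi-likelihood test, Benjamini-Hochberg adjusted p under 0.05 over all genes tested), against 19.4% of all tested genes. They were both receptors, Cd40 and Tnfrsf9, the adaptors Traf1, Traf2, Traf3 and Traf6, and Birc3, and 3 of them rose by more than 4 log2 units. Traf5 and Map3k14 did not pass the test. The median log2 fold of the 9 genes was 1.06, beside 0.05 for all genes tested. In sph/sph mice 2 of the 9 rose, Cd40 and Traf1, and 0 fell, against 0.578% and 0.202% of all tested genes. A bulk library cannot tell fewer cells of a type from less RNA per cell, and this holds for every value below.

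Cd40 encodes the targeted receptor itself (chr2:165055627-165072948, plus strand, GRCm38). It had 116, 111 and 41.2 CPM in sph/sph mice under anti-CD40, against 12.2, 14.0 and 12.1 CPM under saline. In WT mice it had 741, 235 and 232 CPM under anti-CD40, against 26.8, 17.7 and 18.3 CPM under saline. Every anti-CD40 library lay above every saline library, and the highest single value was WT anti-CD40 A. The log2 fold was 2.81 ± 0.52 (SE) in sph/sph mice (edgeR adjusted p = 0.0475) and 4.27 ± 0.55 in WT mice (edgeR adjusted p = 0.000347). The call in WT mice was kept in all 12 fits that left out 1 library (log2 fold 3.48 to 4.51), and that in sph/sph mice in 2 of the 12 (log2 fold 2.57 to 3.14, adjusted p 0.00353 to 0.231).

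Tnfrsf9 (4-1BB, chr4:150914562-150946102, plus strand, lying within Camta1 on the other strand with no shared exon) showed the widest span. In sph/sph mice it had 105, 205 and 96 counts under anti-CD40 (7.25, 15.2 and 5.18 CPM), against 40, 46 and 7 counts under saline (2.66, 2.73 and 0.407 CPM). In WT mice it had 582, 2538 and 1703 counts under anti-CD40 (38.7, 133 and 83.9 CPM), against 1, 3 and 0 counts under saline. Groups did not overlap in either genotype. Under saline the gene was close to absent in WT libraries, where a count of 0 in library C allows up to 0.166 CPM, and it had counts in all 3 sph/sph libraries. The rise in WT mice passed the test (log2 fold 9.98 ± 1.06, edgeR adjusted p = 0.000117), and since it rests on 4 saline counts it is better read as the ratio of summed counts, 1148 with a 95% counting interval of 448 to 4216. In sph/sph mice the ratio was 4.6 (3.67 to 5.83) and the log2 fold 2.25 ± 0.71, which did not pass the test (edgeR adjusted p = 0.124). These intervals cover counting error and not the spread between animals. Since Tnfrsf9 passed the filter on low counts through its anti-CD40 libraries, the test of its rise follows a selection on those libraries.

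Traf1, an adaptor without a RING domain that binds through TRAF2 and is itself an NF-kB target (chr2:34941750-34961772, minus strand), rose most among the adaptors. It had 120, 73.4 and 25 CPM in sph/sph mice under anti-CD40, against 3.19, 2.79 and 1.28 CPM under saline. In WT mice it had 905, 305 and 251 CPM under anti-CD40, against 1.74, 2.53 and 2.44 CPM under saline. The groups were far apart in both genotypes, and the A library was the highest and the C library the lowest of both anti-CD40 groups. The log2 fold was 4.91 ± 0.72 in sph/sph mice (edgeR adjusted p = 0.0237) and 7.76 ± 0.81 in WT mice (edgeR adjusted p = 0.000105). It was called in all 12 fits without 1 library in WT mice and in 7 of the 12 in sph/sph mice (adjusted p 0.00126 to 0.152).

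Traf2 and Traf3, the adaptors that hold the cIAP ligases and NIK in 1 complex, rose in WT mice by smaller amounts. Traf2 had 59.3, 56.1 and 40.3 CPM in sph/sph anti-CD40 and 66.5, 57.9 and 50.8 CPM in WT anti-CD40 libraries, against 29.0, 26.2 and 33.0 CPM in sph/sph saline and 27.3, 30.3 and 26.5 CPM in WT saline libraries. Traf3 had 64.5, 78.0 and 52.5 CPM in sph/sph anti-CD40 and 139, 71.3 and 79.7 CPM in WT anti-CD40 libraries, against 27.6, 29.4 and 24.3 CPM in sph/sph saline and 34.3, 23.8 and 24.8 CPM in WT saline libraries. For both genes all 6 anti-CD40 libraries exceeded all 6 saline libraries, and WT anti-CD40 A was the highest for both. In WT mice the log2 fold was 1.06 ± 0.17 for Traf2 (edgeR adjusted p = 0.00108) and 1.81 ± 0.27 for Traf3 (edgeR adjusted p = 0.000684). In sph/sph mice it was 0.82 ± 0.17 for Traf2 and 1.26 ± 0.26 for Traf3, and neither passed the test (edgeR adjusted p = 0.0549 and 0.0563). Without sph/sph anti-CD40 C, the library rich in B cell markers, both passed it, as they did without WT anti-CD40 A.

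Traf6, the ubiquitin ligase shared with Toll-like and IL-1 receptors, varied more within the anti-CD40 groups. It had 34.0, 60.1 and 43.7 CPM in sph/sph anti-CD40 libraries, against 32.7, 32.5 and 33.1 CPM in sph/sph saline libraries. In WT mice it had 74.1, 45.4 and 74.5 CPM under anti-CD40, against 35.7, 39.3 and 39.7 CPM under saline. The groups did not overlap in either genotype, but sph/sph anti-CD40 A lay just above the sph/sph saline libraries. The log2 fold was 0.49 ± 0.23 in sph/sph mice (edgeR adjusted p = 0.246) and 0.76 ± 0.23 in WT mice (edgeR adjusted p = 0.0226), the weakest of the 7 calls: it was kept in 7 of the 12 fits without 1 library (adjusted p 0.00967 to 0.0937).

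Traf5, a TRAF2-like adaptor, did not pass the test in either genotype. It ran from 15.2 to 21.6 CPM in sph/sph anti-CD40 and from 15 to 20.9 CPM in WT anti-CD40 libraries, against 10.8 to 15.9 CPM in sph/sph saline and 11.2 to 15.2 CPM in WT saline libraries. The ranges overlapped in both genotypes (log2 fold 0.52 ± 0.22 in sph/sph and 0.39 ± 0.22 in WT mice, edgeR adjusted p = 0.208 and 0.18). An antisense gene, Gm26879, shares 205 exon bases with Traf5 on the other strand, and whether reads were counted by strand is not given, so the value is uncertain.

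Birc3 encodes cIAP2, the ubiquitin ligase that TRAF2 recruits. It had 166, 191 and 160 CPM in sph/sph anti-CD40 and 242, 197 and 199 CPM in WT anti-CD40 libraries, against 124, 80.9 and 114 CPM in sph/sph saline and 121, 119 and 93.7 CPM in WT saline libraries. No anti-CD40 library fell within the saline range. The gene rose in WT mice (log2 fold 0.93 ± 0.19, edgeR adjusted p = 0.00348), while the log2 fold of 0.70 ± 0.19 in sph/sph mice did not pass the test (edgeR adjusted p = 0.0939). Of the 12 fits without 1 library, it passed in 1, without sph/sph anti-CD40 C.

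Map3k14 encodes NIK, which is known to be set mainly by protein turnover. Its message had 29.4, 30.7 and 30.5 CPM in sph/sph anti-CD40 libraries, against 23.6, 22.4 and 22.9 CPM in sph/sph saline libraries. In WT mice it had 25, 27.6 and 25.1 CPM under anti-CD40, against 33.7, 30.1 and 27.8 CPM under saline. All sph/sph anti-CD40 libraries thus lay above the sph/sph saline libraries, and all WT anti-CD40 libraries below the WT saline libraries, with small differences and small spread. Neither passed the test (log2 fold 0.39 ± 0.11 in sph/sph and -0.24 ± 0.11 in WT mice, edgeR adjusted p = 0.104 and 0.114). An exon of 1700028N14Rik overlaps Map3k14 on the same strand, and how reads there were assigned is not given.

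Across the 9 genes, anti-CD40 libraries lay wholly above saline libraries for 8 genes in sph/sph mice, against 10.1% of all tested genes. In WT mice this held for 7 genes, against 29.3% of all tested genes, and 1, Map3k14, lay wholly below, against 28%. The number called in sph/sph mice depended on single libraries: it ran from 0 to 6 in the fits without 1 library. It was 6 without sph/sph anti-CD40 C (Cd40, Traf1, Traf2, Traf3, Birc3 and Tnfrsf9) and 4 without WT anti-CD40 A. It was 0 without any 1 of the sph/sph saline libraries and without sph/sph anti-CD40 A or B, and 1, Traf1, in the other 5. Neither Cd40 nor Traf1 was called in sph/sph mice by limma-voom or in the fit of the sph/sph groups alone.

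**Figure D2:**
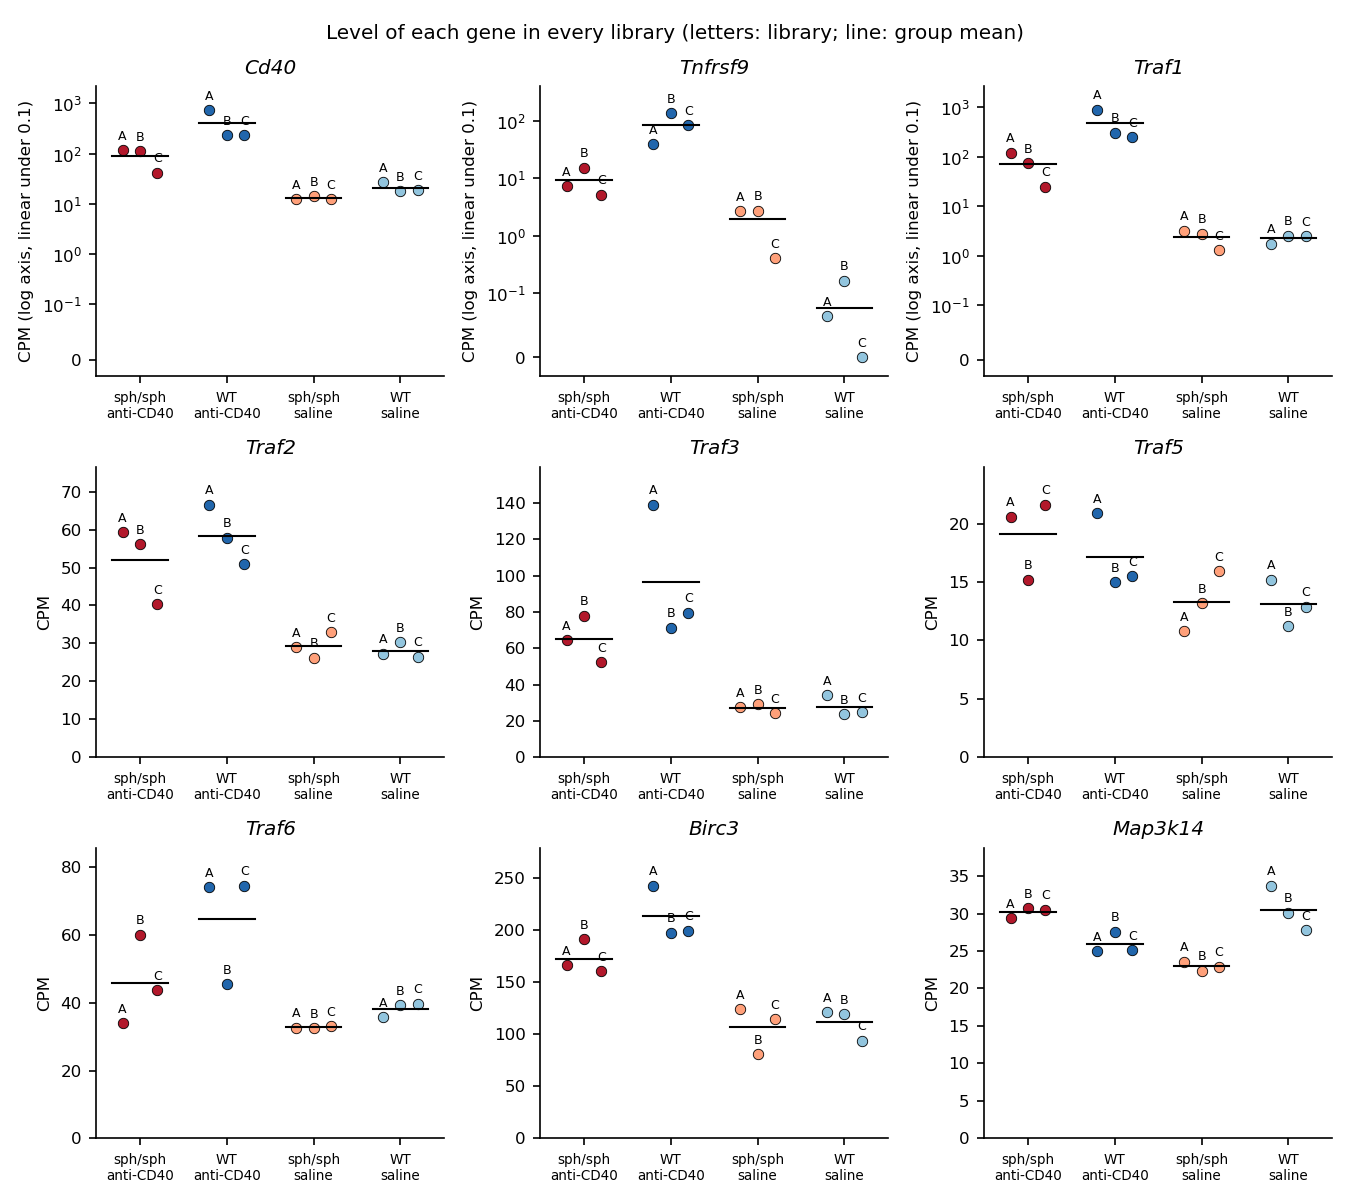
CPM of each of the 9 genes in every library; each point is a library, lettered A to C, the line is the group mean, and the axis is logarithmic above 0.1 for Cd40, Tnfrsf9 and Traf1 and linear from 0 for the others. Cd40 and Traf1 are highest in WT anti-CD40 A (741 and 905 CPM), Tnfrsf9 is highest in WT anti-CD40 B (133 CPM), and for Map3k14, which passed no edgeR test, the anti-CD40 libraries lie above saline in sph/sph and below saline in WT mice.

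The second question is whether sph/sph and WT macrophage preparations differed once CD40 had been engaged. Under anti-CD40, 3 of the 9 genes were lower in sph/sph than in WT mice, against 6.19% of all tested genes: Cd40, Traf1 and Tnfrsf9. Cd40 averaged 89.4 ± 41.9 CPM in sph/sph and 402 ± 293 CPM in WT mice (SD, n = 3 each), with a log2 fold of -2.17 ± 0.50 (SE; edgeR adjusted p = 0.0158). Traf1 averaged 72.8 ± 47.5 CPM in sph/sph and 487 ± 363 CPM in WT mice (SD, n = 3 each), with a log2 fold of -2.74 ± 0.63 (SE; edgeR adjusted p = 0.015). Tnfrsf9 averaged 9.2 ± 5.27 CPM in sph/sph and 85.2 ± 47.3 CPM in WT mice (SD, n = 3 each), with a log2 fold of -3.22 ± 0.70 (SE; edgeR adjusted p = 0.0115). For these 3 genes every sph/sph library was below every WT library, as it was for Birc3 (log2 fold -0.30, edgeR adjusted p = 0.295, not called), 4 genes against 11.7% of all tested genes. Traf2, Traf3, Traf5, Traf6 and Map3k14 did not pass the test either; their log2 folds ran from -0.57 for Traf3 to 0.22 for Map3k14. The 3 calls were kept in all 12 fits without 1 library, in some close to the threshold. The edgeR adjusted p ran from 0.0186 to 0.0366 for Cd40, 0.0165 to 0.0499 for Traf1 and 0.00558 to 0.048 for Tnfrsf9. When the 2 saline groups were left out of the fit, Tnfrsf9 alone kept its call.

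Cd40 and Traf1 were highest in A and lowest in C in both anti-CD40 groups, and so were the summed monocyte markers (2656, 1654 and 710 CPM in sph/sph and 3628, 2926 and 1358 CPM in WT anti-CD40 libraries). For Cd40 this order held near ties: 235 and 232 CPM in WT B and C, and 116 and 111 CPM in sph/sph A and B. Endothelial markers had the opposite order in both groups (286, 631 and 2193 CPM in sph/sph and 1042, 2570 and 4359 CPM in WT anti-CD40 libraries). In WT anti-CD40 libraries alone, hepatocyte and erythroid markers also fell from A to C, while B cell and dendritic cell markers rose. Among WT anti-CD40 libraries, A had the most Cd40 and Traf1 and the fewest T and NK cell markers (290 CPM), while B had the most Tnfrsf9 and the most T and NK cell markers (2406 CPM). Among sph/sph anti-CD40 libraries, B had the most Tnfrsf9 (15.2 CPM) and the fewest T and NK cell markers (7.54 CPM). The part of cell composition in these differences was not tested. The comparison was repeated within the libraries with and without Y-linked counts. In the A libraries, which held none, the log2 ratio of sph/sph to WT under anti-CD40 was -2.67 for Cd40, -2.91 for Traf1 and -2.42 for Tnfrsf9, with 1 library on each side and no test. In the libraries with Y-linked counts the log2 folds were -1.61, -2.50 and -3.42 in the same order of genes; Traf1 passed the test there (edgeR adjusted p = 0.0485), and Cd40 and Tnfrsf9 did not (edgeR adjusted p = 0.0779 and 0.0767).

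Under saline none of the 9 genes differed between sph/sph and WT mice at the threshold of edgeR, against 2.04% of all tested genes. At an unadjusted p under 0.05 there were 2, Tnfrsf9 higher and Map3k14 lower in sph/sph mice, and DESeq2 called the same 2, while limma-voom called 0. Tnfrsf9 had 93 counts over the sph/sph saline libraries, against 4 over the WT saline libraries, a ratio of 24.5 with a 95% counting interval of 9.27 to 92 (edgeR log2 fold 4.51 ± 1.07, adjusted p = 0.064). It was called without sph/sph saline C, the library with 7 of the 93 counts. The gene entered this comparison through its anti-CD40 libraries and was filtered out of the fit of the saline groups alone. Map3k14 averaged 23.0 ± 0.592 CPM in sph/sph saline and 30.5 ± 3.01 CPM in WT saline libraries (SD, n = 3 each; edgeR adjusted p = 0.105). Cd40 was also below the WT range in all 3 sph/sph saline libraries (log2 fold -0.71 ± 0.50, edgeR adjusted p = 0.616). In all, 3 genes had sph/sph saline libraries wholly below WT saline libraries, against 14.3% of all tested genes, and 1 wholly above, against 16.7%.

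The response to anti-CD40 itself was then compared between genotypes. It differed for 1 of the 9 genes, Tnfrsf9, against 4.3% of all tested genes: its log2 response was smaller in sph/sph than in WT mice by a difference of -7.73 ± 1.25 (SE; edgeR adjusted p = 0.00841). The saline levels enter this difference: the gene had 93 counts over the sph/sph saline libraries, against 4 over the WT saline libraries. Here too it passed the filter on low counts through its anti-CD40 libraries. The call was kept in all 12 fits without 1 library, but not with limma-voom and not in the libraries with Y-linked counts alone. For Cd40 the difference of responses was -1.46 ± 0.69 (edgeR adjusted p = 0.296) and for Traf1 -2.85 ± 0.91 (edgeR adjusted p = 0.115), so neither response was shown to differ between genotypes. For Map3k14, whose log2 folds of 0.39 in sph/sph and -0.24 in WT mice did not pass the test, the difference was 0.63 ± 0.16 and did not pass it either (edgeR adjusted p = 0.0508).

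**Figure D3:**
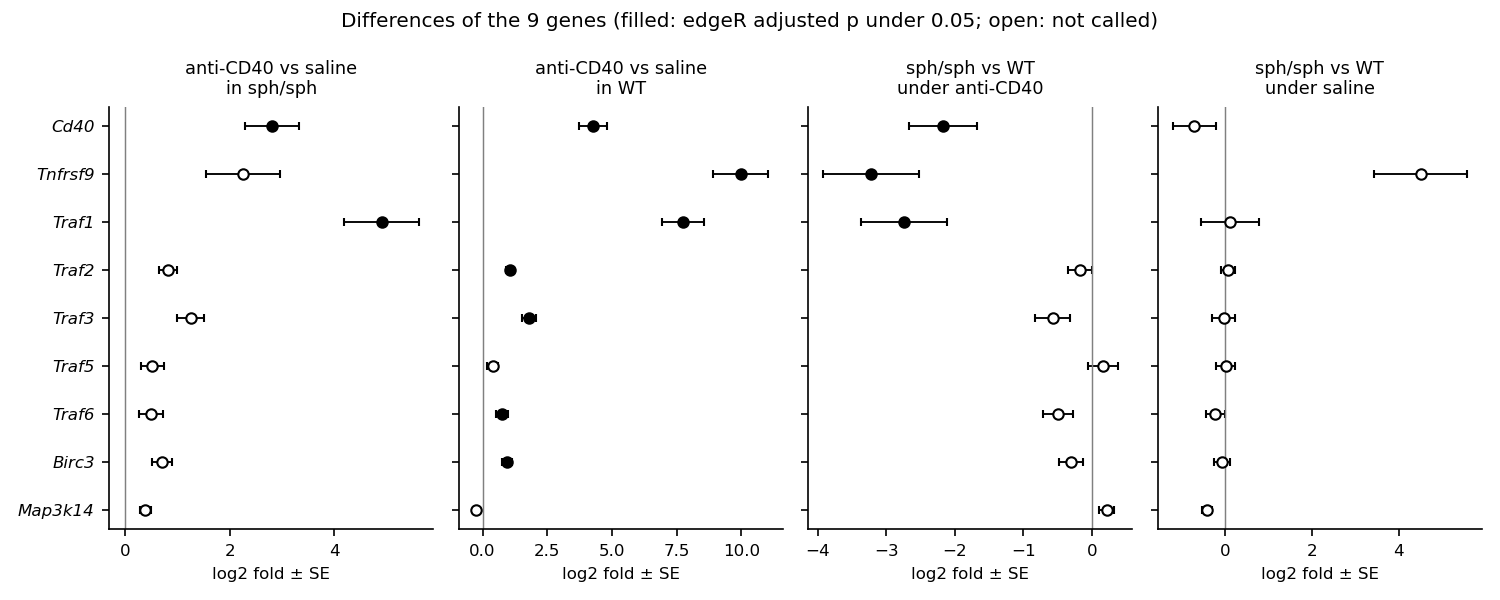
Log2 fold with SE (horizontal bars) of the 9 genes in 4 comparisons; filled points passed edgeR's test at an adjusted p under 0.05 and open points did not. The x axes differ between panels: Tnfrsf9 reaches 9.98 in WT mice and 2.25 in sph/sph mice, and under anti-CD40 the filled points at -2.17, -3.22 and -2.74 are Cd40, Tnfrsf9 and Traf1.

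Levels of different genes were compared per kilobase of exon. In WT saline libraries Birc3 was the highest at 22.3 ± 3.08 CPM per kb (SD, n = 3). Below it Cd40 (6.14 ± 1.5), Traf2 (5.49 ± 0.39), Traf6 (4.85 ± 0.283), Map3k14 (4.66 ± 0.46) and Traf3 (3.76 ± 0.784) lay in that order with spreads that overlap between neighbours. Traf5 followed at 2.87 ± 0.443, Traf1 was at 0.253 ± 0.0492 and Tnfrsf9 at 0.0281 ± 0.0305 CPM per kb. In WT anti-CD40 libraries the order of the means was led by Cd40 at 118 ± 86 CPM per kb, then Traf1 at 55.2 ± 41.1, Birc3 at 42.5 ± 5.12 and Tnfrsf9 at 31.3 ± 17.4, 4 genes whose spreads overlap. Cd40 was the highest within each of these libraries (217, 68.9 and 68.2 CPM per kb). Traf1 was above Birc3 in A (103 against 48.4) and below it in B (34.6 against 39.2) and C (28.5 against 39.8). In sph/sph anti-CD40 libraries Birc3 stayed first at 34.4 ± 3.32 CPM per kb, followed by Cd40 at 26.3 ± 12.3 with an overlapping spread. Traf2 at 10.2 ± 2, Traf3 at 8.84 ± 1.73 and Traf1 at 8.25 ± 5.39 came next and also overlapped. Tnfrsf9 had the lowest mean at 3.38 ± 1.94, with a spread that overlaps those of Traf5 (4.19 ± 0.761) and Map3k14 (4.61 ± 0.111). In library B it was above both (5.57 against 3.32 and 4.69 CPM per kb).

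The makeup of the TRAF pool moved with Traf1. The 5 TRAF genes summed to 37.3 ± 7.96 CPM per kb in sph/sph anti-CD40 and 91.8 ± 49.2 CPM per kb in WT anti-CD40 libraries, against 16.8 ± 0.692 CPM per kb in sph/sph saline and 17.2 ± 0.741 CPM per kb in WT saline libraries (SD, n = 3 each). Traf1 made up 31.8%, 20.4% and 10.1% of this sum in sph/sph anti-CD40 and 69.0%, 53.5% and 45.8% in WT anti-CD40 libraries, against 0.825% to 2.22% in sph/sph saline and 1.09% to 1.7% in WT saline libraries. The least abundant of the 5 adaptors under saline was thus the most abundant in each WT anti-CD40 library, and in 1 of the 3 sph/sph anti-CD40 libraries. Traf2 held 27.4 ± 0.609% in sph/sph anti-CD40 and 14.1 ± 4.69% in WT anti-CD40 libraries, against 34.3 ± 2.81% in sph/sph saline and 31.9 ± 2.85% in WT saline libraries (SD, n = 3 each), although its own level rose in WT mice. These are shares of messages per length and say nothing of the proteins.

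**Figure D4:**
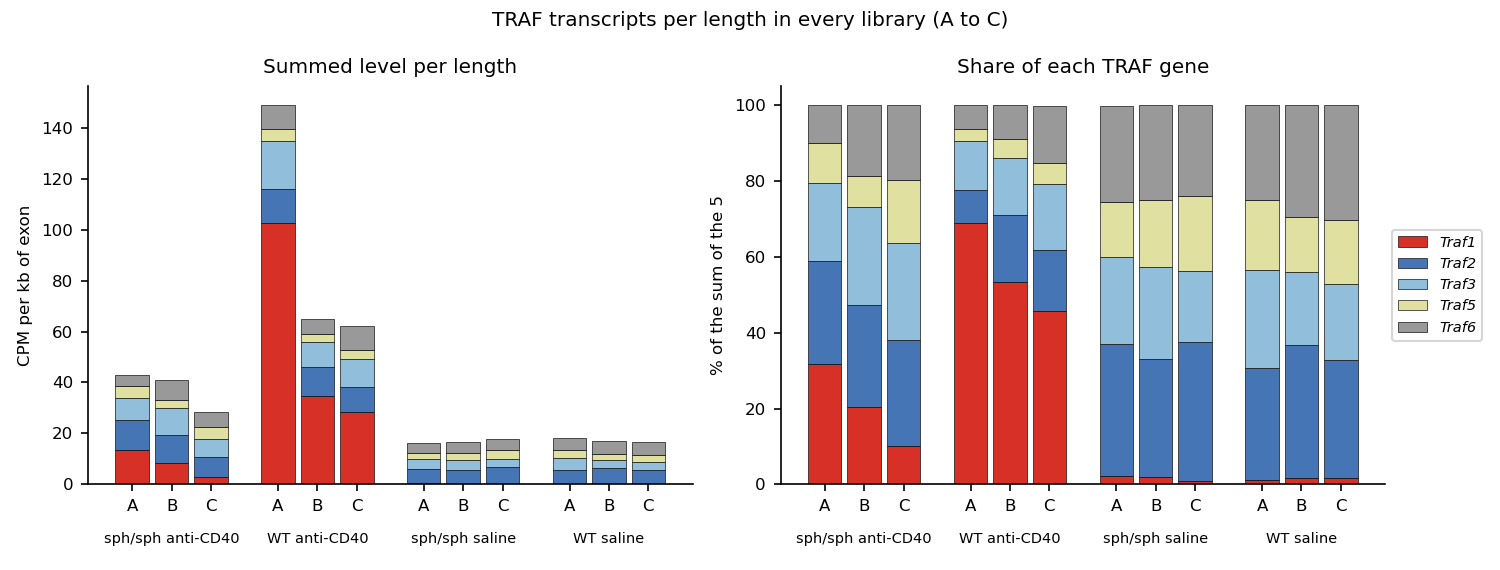
Stacked CPM per kb of exon (left) and percent of the sum (right) of the 5 TRAF genes in every library, A to C, of the 4 groups. Traf1 takes 45.8% to 69.0% of the sum in WT anti-CD40 libraries, 10.1% to 31.8% in sph/sph anti-CD40 libraries and at most 2.22% in saline libraries.

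Across the 12 libraries, most of the 9 genes varied together. Pearson correlations of log2 CPM were 0.97 between Cd40 and Traf1, 0.97 between Cd40 and Traf3 and 0.92 between Cd40 and Traf2, and 0.12 between Cd40 and Map3k14; the libraries are in 4 treatment groups, so these values describe the group differences as much as anything within groups. The genes outside the 9 most like Cd40 were Heatr9 (r = 0.985), Relb (0.983), Nfkbie (0.982), Nfkb2 (0.981) and Pcgf5 (0.981). Those most like Traf1 were Nfkb2 (0.992), Il4i1 (0.988), Zmiz2 (0.987), Ly75 (0.986) and Slamf7 (0.986). Those most like Tnfrsf9 were Cxcl1 (0.964), Mboat1 (0.961), Tubb3 (0.960), Slc7a1 (0.956) and Odc1 (0.954). Heatr9 averaged 1.21 CPM at its highest group mean and rests on few counts.

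The surrounding pathway was read from 6 lists of 117 further genes, also chosen with earlier results of these data known. Of these genes 113 were tested. In WT mice 52 rose and 11 fell under anti-CD40, against 19.4% and 19.7% of all tested genes. A gene could pass the filter on low counts through the group where it is high. Counts of calls in these lists are therefore partly set by the filter. Of the 113, 5 rose and 0 fell in sph/sph mice (40 and 5 at an unadjusted p under 0.05, 30 and 2 with DESeq2, 1 and 0 with limma-voom), against 0.578% and 0.202% of all tested genes. Without sph/sph anti-CD40 C, 35 rose and 3 fell. Under anti-CD40, 7 were higher and 19 lower in sph/sph than in WT mice, against 11.5% and 6.19% of all tested genes. Under saline 0 differed between the genotypes by edgeR, against 2.04% of all tested genes, with 6 higher and 5 lower in sph/sph mice at an unadjusted p under 0.05, 3 and 3 with DESeq2 and 0 with limma-voom.

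Among 15 tested TNF family ligands, 10 rose and 2 fell in WT mice, against 19.4% and 19.7% of all tested genes, with a median log2 fold of 4.77, also with the genes at 0 in a group set to their bound. Cd40lg, Tnfsf4 and Fasl passed the filter on low counts through the WT anti-CD40 libraries. The counts of calls and the median are therefore partly set by the filter. Cd40lg, the ligand of CD40 and a product of activated T cells, had 10 counts over the sph/sph anti-CD40 libraries and 119 over the WT anti-CD40 libraries, against 1 in sph/sph saline and 0 in WT saline libraries. It was at least 37.8-fold higher under anti-CD40 than under saline in WT mice, taken against a floor of 3 counts over the saline group. Tnfsf4 (OX40 ligand) had 16 counts in sph/sph anti-CD40 and 212 in WT anti-CD40 libraries and 0 in both saline groups. Against the same floor, with the anti-CD40 counts taken as exact, it was at least 5.62-fold higher under anti-CD40 than under saline in sph/sph mice. In WT mice it was at least 67.3-fold higher. The rise of Tnfsf4 in sph/sph mice did not pass the test (edgeR adjusted p = 0.107). Cd40lg and Tnfsf4 rose by the test in WT mice (edgeR adjusted p = 0.0039 and 0.00227), where T and NK cell markers rose too. Lta (lymphotoxin alpha) rose in both genotypes, with 60, 31 and 178 counts in sph/sph anti-CD40 libraries against 4, 7 and 0 in sph/sph saline libraries (edgeR adjusted p = 0.0462, called in 2 of the 12 fits without 1 library and not by limma-voom), and with 598, 538 and 298 counts in WT anti-CD40 libraries against 1 in each WT saline library (edgeR adjusted p = 0.000172). Tnfsf13 (APRIL) fell in WT mice, to 21.3, 12.8 and 10.5 CPM under anti-CD40 against 81.4, 72.2 and 90.3 CPM under saline (log2 fold -2.45 ± 0.26, edgeR adjusted p = 0.000118). Tnfsf18 (GITR ligand) fell as well, with 2 counts over WT anti-CD40 libraries against 19 over WT saline libraries. Under anti-CD40, Fasl, Tnfsf4 and Cd40lg were among 6 ligands lower in sph/sph than in WT mice, against 6.19% of all tested genes. This count is partly set by the filter as well, since the named ligands passed it through the WT libraries. Tnfsf13 and Tnfsf18 were the 2 that were higher, a share near the 11.5% of all tested genes.

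Among 21 tested TNF family receptors other than Cd40 and Tnfrsf9, 8 rose and 3 fell in WT mice, against 19.4% and 19.7% of all tested genes. Fas, the death receptor, had 27.4, 24.0 and 13.7 CPM in sph/sph anti-CD40 and 78.3, 70.7 and 135 CPM in WT anti-CD40 libraries, against 7.21 to 9.44 CPM in sph/sph saline and 5.85 to 10.9 CPM in WT saline libraries. It rose in WT mice (log2 fold 3.44 ± 0.36, edgeR adjusted p = 0.000105) and was lower in sph/sph than in WT mice under anti-CD40 (log2 fold -2.13 ± 0.34, edgeR adjusted p = 0.00236). Tnfrsf12a, the receptor for TWEAK, had 2.28, 1.78 and 2.05 CPM in sph/sph anti-CD40 libraries, against 1.26, 1.9 and 2.91 CPM in sph/sph saline libraries. In WT mice it had 11.6, 20.2 and 23.3 CPM under anti-CD40, against 2.51, 1.7 and 2.33 CPM under saline (log2 fold 3.07 ± 0.37, edgeR adjusted p = 0.000229). The sph/sph ranges overlap, and the WT ranges do not. Tnfrsf18 (GITR, high on T cells) and Tnfrsf13c (the BAFF receptor of B cells) were the largest rises in WT mice, at log2 folds of 6.47 and 4.83 (edgeR adjusted p = 0.00439 and 0.0189). Tnfrsf13c had 73.2 CPM in sph/sph anti-CD40 C, the library rich in B cell markers, against 2 and 8.98 CPM in the others of that group. Tnfrsf25 (death receptor 3, known from T cells) had 6, 1 and 28 counts in sph/sph anti-CD40 and 59, 112 and 95 counts in WT anti-CD40 libraries and was lower in sph/sph mice (log2 fold -2.81 ± 0.73, edgeR adjusted p = 0.0252). Tnfrsf11a (RANK), Tnfrsf21 and Tnfrsf26 fell in WT mice and were higher in sph/sph than in WT mice under anti-CD40. In that genotype comparison 3 of the 21 receptors were higher and 4 lower, against 11.5% and 6.19% of all tested genes. The share that was higher is near that of all tested genes. Tnfrsf21 (death receptor 6) had 129, 150 and 112 CPM in sph/sph and 55.6, 32.1 and 28.4 CPM in WT anti-CD40 libraries. The Kupffer cell markers also fell in WT mice and were higher in sph/sph than in WT mice, and their part in these differences was not tested.

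Of 28 partners of the TRAF complex, 6 rose and 3 fell in WT mice, against 19.4% and 19.7% of all tested genes, with a median log2 fold of 0.06 beside 0.05 for all genes tested. The share that rose is near that of all tested genes. Tnfaip3, which encodes the deubiquitinase A20 and limits NF-kB signalling, rose most (log2 fold 3.30 ± 0.45, edgeR adjusted p = 0.00049). It had 251, 366 and 90.1 CPM in sph/sph anti-CD40 libraries, against 48.3 to 81.9 CPM in sph/sph saline libraries (edgeR adjusted p = 0.0712). Birc2, which encodes cIAP1, had 95.3, 93.2 and 49.1 CPM in sph/sph anti-CD40 and 300, 143 and 206 CPM in WT anti-CD40 libraries, against 32.7 to 39.6 CPM in sph/sph saline and 43.1 to 46.2 CPM in WT saline libraries. It rose in WT mice by a log2 fold of 2.26 ± 0.30 (edgeR adjusted p = 0.000381), and under anti-CD40 it was lower in sph/sph mice (log2 fold -1.45 ± 0.29, edgeR adjusted p = 0.00816), whereas its paralogue Birc3 did not pass that test. Cyld, a deubiquitinase, and Rnf31, a subunit of the linear ubiquitin ligase, were the other partners lower in sph/sph than in WT mice under anti-CD40 (log2 folds -0.38 ± 0.10 and -0.61 ± 0.16, edgeR adjusted p = 0.0272 and 0.0243). In all, 3 of the 28 partners were lower, against 6.19% of all tested genes. Map3k5, Tab2 and Ripk1 fell in WT mice, by 1.5, 0.64 and 0.39 on the log2 scale. Traf4, a TRAF that is not known as a CD40 adaptor, rose in WT mice (log2 fold 2.14 ± 0.65, edgeR adjusted p = 0.0264).

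Of 15 kinases that lead to NF-kB and MAP kinases, 3 rose and 3 fell in WT mice, shares near the 19.4% and 19.7% of all tested genes. Jak3, which binds the CD40 tail, rose (log2 fold 1.80 ± 0.22, edgeR adjusted p = 0.00022) and was lower in sph/sph than in WT mice under anti-CD40 (log2 fold -0.96 ± 0.21, edgeR adjusted p = 0.0121). Map2k3 and Tbk1 rose by 0.62 and 0.58 on the log2 scale. Map3k8 (TPL2) and Mapk14 (p38 alpha) fell in WT mice, by 1.31 and 1.10 on the log2 scale (edgeR adjusted p = 0.0012 and 0.000831), and were higher in sph/sph than in WT mice under anti-CD40 (log2 folds 0.88 ± 0.21 and 0.75 ± 0.17, edgeR adjusted p = 0.0181 and 0.0129). Map2k7 fell by 0.37.

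Of 11 NF-kB subunits and inhibitors, 9 rose in WT mice and 0 fell (also 0 at an unadjusted p under 0.05, with DESeq2 and with limma-voom), against 19.4% and 19.7% of all tested genes, with a median log2 fold of 1.47. Nfkb2, the precursor that NIK signalling processes, had 268, 229 and 132 CPM in sph/sph anti-CD40 and 632, 357 and 316 CPM in WT anti-CD40 libraries, against 43.7 to 51.6 CPM in sph/sph saline and 42.4 to 58.4 CPM in WT saline libraries. It rose in both genotypes (log2 fold 2.11 ± 0.32 in sph/sph and 3.14 ± 0.33 in WT mice, edgeR adjusted p = 0.0237 and 0.000105) and was lower in sph/sph mice under anti-CD40 (log2 fold -1.05 ± 0.31, edgeR adjusted p = 0.0388). The call in sph/sph mice was kept in 7 of the 12 fits without 1 library (adjusted p 0.00136 to 0.152) and lost without any 1 of the sph/sph saline libraries, without sph/sph anti-CD40 A or B, and in the fit of the sph/sph groups alone (adjusted p = 0.17). Relb, its partner in the non-canonical dimer, rose in WT mice (log2 fold 3.31 ± 0.51, edgeR adjusted p = 0.000924); its log2 fold of 2.20 ± 0.49 in sph/sph mice did not pass the test (edgeR adjusted p = 0.0664). Nfkbie, an inhibitor, rose in both genotypes (log2 fold 2.27 ± 0.43 in sph/sph and 2.55 ± 0.44 in WT mice, edgeR adjusted p = 0.0494 and 0.00162). In sph/sph mice its call was kept in 2 of the 12 fits without 1 library (adjusted p 0.000779 to 0.231) and lost with limma-voom and in the fit of the sph/sph groups alone (adjusted p = 0.066 and 0.212). Nfkb1 was the other gene of this list that was lower in sph/sph than in WT mice under anti-CD40 (log2 fold -0.54 ± 0.14, edgeR adjusted p = 0.0246). In all, 2 of the 11 were lower, against 6.19% of all tested genes.

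Of 23 genes known to be induced through CD40 in antigen-presenting cells, 16 rose and 0 fell in WT mice, against 19.4% and 19.7% of all tested genes, with a median log2 fold of 2.92; at an unadjusted p under 0.05, 1 fell, and limma-voom and DESeq2 each called 1 lower. Nos2, the inducible nitric oxide synthase, had 38.6, 35.9 and 0.378 CPM in sph/sph anti-CD40 and 1144, 79.1 and 98.8 CPM in WT anti-CD40 libraries, against 0.175 to 0.831 CPM in sph/sph saline and 0.166 to 0.835 CPM in WT saline libraries. Ptgs2, the inducible cyclooxygenase, had 12.4, 58.7 and 0 CPM in sph/sph anti-CD40 and 384, 65.7 and 70.7 CPM in WT anti-CD40 libraries. Il12b, a subunit of interleukin 12, had 1.87, 3.85 and 0.162 CPM in sph/sph anti-CD40 and 112, 30.4 and 30.4 CPM in WT anti-CD40 libraries. In all 3 genes WT anti-CD40 A was the highest library and sph/sph anti-CD40 C the lowest of the anti-CD40 libraries, as for Cd40 and Traf1. Nos2, Ptgs2 and the chemokine gene Ccl22 rose in WT mice by log2 folds of 9.91 ± 1.9, 9.28 ± 1.94 and 8.14 ± 1.54 (edgeR adjusted p = 0.00289, 0.0046 and 0.00273). Il12b, Fscn1 (fascin) and Cd83 were the 3 genes of the 23 that were lower in sph/sph than in WT mice under anti-CD40, against 6.19% of all tested genes. Their log2 folds were -4.90 ± 1.06, -3.05 ± 0.87 and -1.65 ± 0.48 (edgeR adjusted p = 0.0113, 0.0371 and 0.0381).

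**Figure D5:**
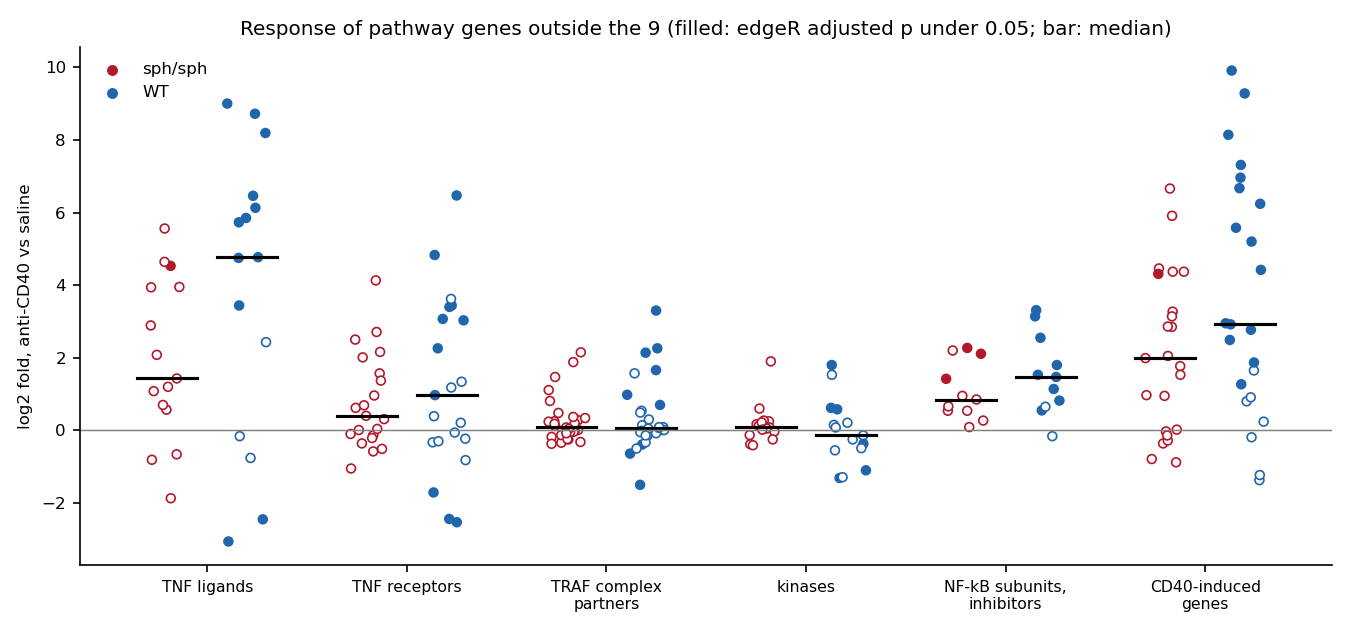
Log2 fold of anti-CD40 against saline for the tested genes of 6 pathway lists, in sph/sph (red) and WT mice (blue); each point is a gene, filled where edgeR's adjusted p was under 0.05, and the bar is the list's median. In WT mice the medians are 4.77 for TNF ligands, 1.47 for NF-kB subunits and inhibitors and 2.92 for CD40-induced genes, and in sph/sph mice 1.43, 0.85 and 1.99.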

How the data were processed

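RNA from F4/80-enriched mouse liver cells was sequenced from stranded TruSeq libraries, per the labels' protocols. The deposited values are raw read counts per Ensembl gene, 1 column per library. The submitters' processing notes name featureCounts, STAR 2.7.0e, SAMtools 1.9 and the build GRCm38.p5; how strand and multi-mapped reads were treated is not given in the sources used here. Of 25700 genes, 25587 matched a symbol. Members and lists were chosen with earlier results of these data known.

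Tests used edgeR 4.0.16 (R 4.3.3). A filter by filterByExpr on the groups kept 13844 genes. The 12 libraries were TMM-scaled and entered 1 robust quasi-likelihood fit with 4 group means, with Benjamini-Hochberg adjustment over all genes tested, with calls at an adjusted p under 0.05. The standard error (SE) was taken from F as |log2 fold| / √F. Fitted log2 folds of genes near 0 counts depend on the prior count, so ratios of summed counts are given with exact 95% intervals, or as bounds against a floor of 3 counts. Intervals and floors cover counting error only. Lengths and coordinates follow GENCODE on GRCm38, with exons of all transcripts merged. Depth was 14991250 to 18984067 counts per library, and the common biological coefficient of variation was 0.382. Named pathway genes are those with up to the 3 largest rises and the 3 largest falls per list among calls in WT mice, and up to 3 each way per list in the genotype comparison under anti-CD40 and in the difference of responses. Genes of like pattern are the 5 with the highest Pearson correlation of log2 CPM. Alternatives were DESeq2's size factors, upper-quartile scaling, no filter, DESeq2 1.42.0, limma-voom (limma 3.58.1), a fit of only the groups compared, removal of erythroid markers, each library left out and, chosen after seeing the data, 2 fits that follow Y-linked counts.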

Additional observations from a re-analysis of the deposited data

Results flagged for a closer look

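Responses to anti-CD40 that differed between the genotypes by a test of the difference itself are listed here as the log2 response of sph/sph mice minus that of WT mice, with edgeR's adjusted p. For Tnfrsf9 it was -7.73 (adjusted p = 0.00841), with summed counts of 406 in sph/sph anti-CD40 and 4823 in WT anti-CD40 libraries, against 93 in sph/sph saline and 4 in WT saline libraries. Among the other receptors it was -2.07 for Fas (adjusted p = 0.0372), -3.07 for Tnfrsf12a (adjusted p = 0.00909) and 1.95 for Tnfrsf21 (adjusted p = 0.00991). For the ligand Tnfsf13 it was 1.64 (adjusted p = 0.0305). The kinase gene Map2k3 had -0.75 (adjusted p = 0.0424). It averaged 79.7 CPM in sph/sph anti-CD40 and 93.5 CPM in WT anti-CD40 libraries, against 87.3 CPM in sph/sph saline and 61 CPM in WT saline libraries. Under anti-CD40 its level did not differ between genotypes by the test (edgeR adjusted p = 0.242). Pim1, a survival kinase induced through CD40, had -1.97 (adjusted p = 0.0486), with 152, 153 and 54.9 CPM in sph/sph anti-CD40 and 237, 230 and 170 CPM in WT anti-CD40 libraries, against 48.5 to 73.2 CPM in sph/sph saline and 23.6 to 31.2 CPM in WT saline libraries. Of the 113 tested pathway genes, the difference was called positive for 2 and negative for 4, against 4.3% of all tested genes in either direction. The share is near that of all tested genes. The counts were 2 and 2 with limma-voom, 1 and 1 without WT saline A, and 4 and 10 without sph/sph anti-CD40 C.

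Map3k14 was singled out because all anti-CD40 libraries lay above the saline libraries in sph/sph mice and all lay below them in WT mice. The difference of responses was 0.63 and just missed the threshold (adjusted p = 0.0508; 0.0538 to 0.141 without 1 library).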

How the results depend on the processing

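No paired analysis was possible because the columns of the count table carry no replicate number, and the groups of a treatment share a single ID number, that of their A libraries. Of 935 recomputed log2 folds of the 9 genes, 871 kept their direction and their side of the threshold, 16 passed it only under the alternative, 34 passed it only in the fit described, and 14 reversed.

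For anti-CD40 against saline in sph/sph mice, where 2 of the 9 genes and 108 of all genes were called, no filter gave 1 of the 9, DESeq2 gave 6 and 1308, limma-voom 0 and 64, upper-quartile scaling 70 of all genes, the fit of only the groups compared 0 and 0, and the libraries with Y-linked counts 0 and 0. Without 1 library the counts ran from 0 to 6 and from 0 to 2372. In WT mice, where 5420 of all genes were called, the libraries with Y-linked counts gave 2845 and DESeq2 6389, and without 1 library the count ran from 3841 to 6583. For sph/sph against WT under anti-CD40, with 3 and 2455 called, the fit of only these groups gave 1 (Tnfrsf9) and 735, and the libraries with Y-linked counts gave 1 (Traf1) and 1174; without 1 library all genes ran from 1355 to 3408. Under saline, with 0 and 282 called, DESeq2 gave 2 and 823, the fit of only these groups 891 of all genes, in which Tnfrsf9 was filtered out, and the libraries with Y-linked counts 13; without 1 library the counts ran from 0 to 1 and from 73 to 539. For the difference of responses, with 1 and 595 called, DESeq2 gave 3 (Traf1, Map3k14 and Tnfrsf9) and 1378, limma-voom gave 0 of the 9 (at an adjusted p of 0.119 for Tnfrsf9), and the libraries with Y-linked counts gave 0 and 153; without 1 library all genes ran from 259 to 944. The cause was not tested beyond the smaller number of libraries in some fits.

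The reversals were small log2 folds that passed no test. For sph/sph against WT under saline, Traf1 was 0.11 and became -0.01 with a term for Y-linked counts and -0.29 in the libraries that hold them (-0.14 to 0.41 without 1 library). Traf3 was -0.03 and became 0.14 in those libraries (-0.15 to 0.16 without 1 library), and Traf5 was 0.02 and became -0.02 with upper-quartile scaling (-0.12 to 0.15 without 1 library). Traf2 ran from -0.02 to 0.15 and Birc3 from -0.19 to 0.09 without 1 library. For the difference of responses, Traf6 was -0.27 and became 0.06 in the libraries with Y-linked counts.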
